A study of Mus musculus with 6 samples.

Results

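The 39 genes described here encode the 19 Wnt ligands, the 10 Frizzled receptors and 10 secreted antagonists, namely *Sfrp1*, *Sfrp2*, *Sfrp4*, *Sfrp5*, *Frzb*, *Wif1* and *Dkk1* to *Dkk4*. They were taken by name from the 21938 protein-coding genes of the GENCODE M21 annotation of mm10. An ATAC-seq peak was counted for a gene when its summit lay in the gene body or within 50 kb of it. Each library held 646 to 707 such peaks among 179462 to 198929 in its list, or 0.354 to 0.369% of the list. Peaks of the 6 libraries were compared at 542 sites in these windows, out of 160874 sites tested across the genome. A site spans 401 bp around a peak summit, a library has a peak there when a summit of its own lies within 200 bp of the centre, and a site was tested when at least 2 libraries had one. Ligand windows held 284 of the sites, receptor windows 142 and antagonist windows 116. The windows of *Wnt6* and *Wnt10a*, of *Wnt3a* and *Wnt9a*, of *Wnt3* and *Wnt9b* and of *Wnt1* and *Wnt10b* overlap, and sites in an overlap were counted once.

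ATAC-seq marks open chromatin through insertion of sequencing adapters by the Tn5 transposase. Nuclei came from the primary visual cortex (V1) of mice at P21, homozygous for a floxed allele of the glucocorticoid receptor (*GR* fl/fl), injected at P0 to P1 with an AAV2/5 vector. In GR-KO mice the astrocyte promoter GfaABC1D drove Cre and a nuclear membrane-anchored EGFP (EGFP-KASH), and in GR-con mice the same promoter drove the inactive ΔCre with the same reporter. Nuclei positive for the DNA dye DRAQ5 and for GFP were sorted, so only transduced nuclei were sampled, and each of the 3 libraries per condition pooled V1 from 3 to 4 mice by the labels. The floxed allele and the injection were shared by both conditions.

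Wnt proteins are lipid-modified secreted ligands that bind the extracellular domain of Frizzled receptors. With the co-receptors Lrp5 or Lrp6 this stabilises β-catenin, which acts with TCF/LEF factors on target genes, and other Frizzled or Ror receptor complexes signal without β-catenin. Secreted frizzled-related proteins (the Sfrp genes and *Frzb*) and Wif1 bind Wnt ligands outside the cell, whereas Dkk1, Dkk2 and Dkk4 bind the Lrp co-receptors. In the brain, Wnt7a and Wnt7b signal from neural cells to endothelium during formation of vessels and of the blood–brain barrier.

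The sequences at which the results turn are given here, 5′ to 3′ on the plus strand of mm10 unless stated otherwise, as 300 bases around the site centre. Capitals mark matches on either strand to the motifs searched: the GR half-site AGAACA, the NFI half-site TTGGCA, the AP-1 motif TGANTCA and a TCF/LEF motif CTTTGA. A match on the minus strand shows as the reverse complement of these letters. The first site was the one called lower in GR-KO. The second, in an intron of *Wnt5b*, had the next smallest p among lower sites by −log10 p rank. The last, upstream of *Wnt2b*, was not called. It had the smallest p among sites higher in GR-KO whose sequence was available for printing. For the called higher site, in the *Wnt8a* window, no sequence was available, and no motif is given for it here. The *Wnt5b* intron site and the *Wnt2b* upstream site were chosen for printing after their values were seen.
Wnt2b downstream site, chr3:104936284-104936583: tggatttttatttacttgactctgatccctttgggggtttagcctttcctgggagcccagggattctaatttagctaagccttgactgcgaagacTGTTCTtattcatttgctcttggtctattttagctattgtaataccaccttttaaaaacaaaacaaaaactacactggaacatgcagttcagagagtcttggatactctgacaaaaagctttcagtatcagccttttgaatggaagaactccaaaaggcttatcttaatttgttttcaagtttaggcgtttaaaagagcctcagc
Wnt5b intron site, chr6:119514101-119514400: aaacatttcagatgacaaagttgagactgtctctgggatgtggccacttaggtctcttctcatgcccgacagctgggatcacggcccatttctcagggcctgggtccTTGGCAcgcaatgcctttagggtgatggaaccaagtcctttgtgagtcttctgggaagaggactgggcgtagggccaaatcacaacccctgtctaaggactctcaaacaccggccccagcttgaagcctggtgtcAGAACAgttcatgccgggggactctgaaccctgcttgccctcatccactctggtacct
Wnt2b upstream site, chr3:104993867-104994166: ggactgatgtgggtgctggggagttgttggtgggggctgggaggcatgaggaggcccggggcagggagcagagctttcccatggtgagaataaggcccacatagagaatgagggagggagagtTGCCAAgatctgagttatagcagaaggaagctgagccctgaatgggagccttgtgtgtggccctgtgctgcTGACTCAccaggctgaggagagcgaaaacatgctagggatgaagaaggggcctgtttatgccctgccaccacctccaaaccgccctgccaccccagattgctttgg
The *Wnt2b* downstream site and the *Wnt5b* intron site each held a GR half-site, a motif present at 24.3% of all sites and at 126 of the 542 member sites (23.2%). The full GR element, which joins a pair of half-sites and can contain the half-site match, was at 660 of the 160874 sites (0.41%) and at 0 of the 542 member sites. TCF/LEF matches were at 19.4% of member sites and 19.6% of all sites, AP-1 matches at 8.3% and 8.92%, and NFI half-sites at 20.1% and 25.4%. By class, NFI half-sites were at 28.4% of antagonist, 18.7% of ligand and 16.2% of receptor sites. The motif ACTGTA was at 7.93% of member sites and 11.8% of all sites.

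All 8 astrocyte marker genes had a start-site peak in every library, with a summed fold of 60.5 to 63.0 in GR-con and 65.6 to 69.1 in GR-KO libraries. Markers of other cell types also had peaks, some of them in every library, and their part in the results was not tested. The lists differ in length, so summed folds compare conditions and not cell types. By −log10 p, the median percentile within a library was 91.1 to 92.3 for the astrocyte genes. It was 88.5 to 90.6 for the 2 oligodendrocyte precursor genes named below. The summed fold was 17.9 to 23.0 against 20.97 to 21.29 for 6 neuronal genes, 25.9 to 32.1 against 25.5 to 29.3 for 6 oligodendrocyte genes (*Mag* and *Mog* without a peak) and 29.1 to 33.6 against 30.9 to 33.8 for the 2 precursor genes *Pdgfra* and *Cspg4*. It was 29.99 to 31.79 against 29.5 to 32.9 for 5 endothelial and mural genes (*Pecam1* without a peak). For 5 microglial genes it was 11.2 to 16.1 in GR-con and 14.1 to 19.7 in GR-KO, with no peak at *Cx3cr1*, *Aif1* or *Csf1r*, and the fibroblast genes *Col1a1* and *Dcn* had none. At *Nr3c1*, which encodes GR, 1 of 17 tested sites in the gene body was called. Its fold was 17.4, 17.4 and 14.3 in GR-con and 6.68, 4.73 and 6.36 in GR-KO 1 to 3 (adjusted p = 0.0242 by the rank of fold, limma). The floxed segment was not located here, so this site is no check of the deletion, and loss of the DNA itself was not tested. Fewer nuclei with an open site and a site less open in every nucleus cannot be told apart in such pooled libraries.

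All Frizzled genes had open promoters in both conditions. A start-site peak, with its summit within 500 bp of an annotated transcription start, was present in every library at 10 of 10 receptors, 8 of 10 antagonists and 8 of 19 ligands, against 61.5% of all protein-coding genes. The fold, a ratio of the signal at a peak to the local background of its own library, is as the authors deposited it. *Fzd1* had the highest mean rank of all members by −log10 p, with GR-con folds of 12.7, 13.4 and 12.7 and GR-KO folds of 16.0, 14.6 and 15.1, so the groups did not overlap. *Fzd5* had 16.4, 16.2 and 14.7 against 17.5, 16.7 and 15.7, *Fzd8* 11.8, 12.4 and 12.4 against 12.6, 11.9 and 11.9, and *Fzd7* 11.3, 10.7 and 9.4 against 12.7, 10.9 and 11.97, all overlapping. *Fzd2* had GR-con folds of 11.3, 11.2 and 11.3 and GR-KO folds of 12.8, 12.7 and 12.03, again without overlap.

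**Figure D1:**
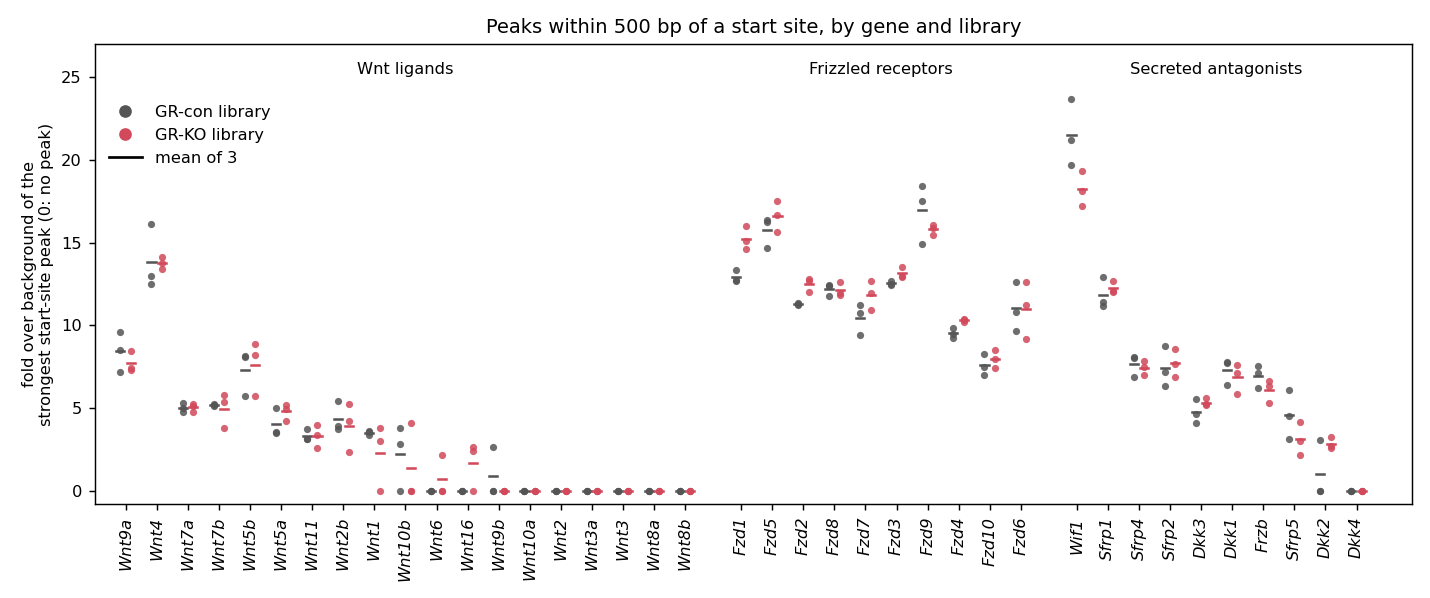
Fold over the local background of the strongest peak within 500 bp of a start site (vertical axis, 0 where no peak was listed) for each of the 39 genes (horizontal axis), with a point for each GR-con (grey) and GR-KO (red) library and a bar for the mean of 3. All 10 Frizzled genes have a peak in every library, whereas 6 ligands and *Dkk4* have none, and *Wif1* has the highest GR-con mean, 21.5.

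With *Fzd3* and *Fzd4*, named because their groups were also apart, the fold of every GR-KO library exceeded that of every GR-con library at 4 of 10 receptors, and at 4 of the 30 members with a start-site peak in 2 or more libraries. The share over all protein-coding genes with such a peak was 9.86%. Whether the receptor share differs from it was not tested. None of the 4 start sites was called by limma. The smallest adjusted p was 0.219, for the rank of fold at *Fzd1*, where the −log10 p was 378, 424 and 377 in GR-con and 447, 438 and 437 in GR-KO. By −log10 p, groups were apart only at *Fzd1* and *Fzd4* in this direction (2 of 30, background 5.5%).

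The antagonist *Wif1* was the only member whose start site was lower in every GR-KO than in every GR-con library. Wif1 is a secreted protein that binds Wnt ligands and keeps them from Frizzled. The fold of its start-site peak was 23.7, 21.2 and 19.7 in GR-con and 17.2, 19.3 and 18.1 in GR-KO libraries, and the −log10 p was 159, 143 and 148 against 97.5, 118 and 110. The background for such a separation was 4.56% of genes by fold and 8.67% by −log10 p, and the *Wif1* site was not called (adjusted p = 0.244 by fold rank and 0.229 by −log10 p rank, limma). The 206 bases that end just before the first annotated base of *Wif1*, from the RefSeq promoter table (GRCm38.p6), are given here with the 250 bases before the RefSeq start of *Fzd1*, read on its minus strand. They are shown because their groups were apart by both measures, in opposite directions.
Wif1, chr10:121033754-121033959: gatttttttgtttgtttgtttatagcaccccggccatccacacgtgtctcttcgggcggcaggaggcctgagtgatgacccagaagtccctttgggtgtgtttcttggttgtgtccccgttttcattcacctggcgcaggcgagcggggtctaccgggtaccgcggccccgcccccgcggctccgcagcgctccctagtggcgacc
Fzd1, chr5:4758217-4758466, minus strand: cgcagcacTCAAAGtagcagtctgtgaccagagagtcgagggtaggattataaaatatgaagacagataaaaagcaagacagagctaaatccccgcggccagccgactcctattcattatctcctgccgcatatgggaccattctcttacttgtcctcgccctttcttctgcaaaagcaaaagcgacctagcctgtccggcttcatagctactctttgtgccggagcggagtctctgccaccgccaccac
The *Fzd1* stretch held 1 TCF/LEF match, in capitals, and the 250 bases before the RefSeq start of *Wif1* held no match to any motif searched. Of the promoters in that table, 13.8% held the TCF/LEF motif in those 250 bases, and 5 of the 30 promoters listed for 27 of the members did.

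The other antagonist promoters overlapped between conditions. *Sfrp1* had GR-con folds of 12.95, 11.2 and 11.4 and GR-KO folds of 12.66, 12.04 and 12.06, *Sfrp4* 6.86, 8.11 and 8.03 against 6.98, 7.87 and 7.49, and *Sfrp2* 7.15, 6.33 and 8.77 against 8.6, 7.65 and 6.9. *Dkk3*, a divergent Dickkopf gene, had 5.52, 4.64 and 4.1 against 5.58, 5.17 and 5.27. *Dkk2* had a weak peak in 1 GR-con library and in all 3 GR-KO libraries, and *Dkk4* had none.

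Ligand promoters split into open and closed genes. Among the open ones, *Wnt4* had GR-con folds of 12.5, 16.1 and 12.96 and GR-KO folds of 14.1, 13.4 and 13.8, and *Wnt9a* 7.19, 9.6 and 8.51 against 7.3, 7.42 and 8.47. *Wnt7a* and *Wnt7b* were lower, at 4.98, 5.31 and 4.75 against 4.77, 5.24 and 5.14 for *Wnt7a*, and at 5.15, 5.23 and 5.16 against 5.77, 3.78 and 5.36 for *Wnt7b*. *Wnt5b*, a ligand of signalling without β-catenin, had 8.13, 8.09 and 5.73 against 5.73, 8.9 and 8.23. Start sites of *Wnt2*, *Wnt3*, *Wnt3a*, *Wnt8a*, *Wnt8b* and *Wnt10a* had no peak in any library, and those of *Wnt1*, *Wnt6*, *Wnt9b*, *Wnt10b* and *Wnt16* had one in some libraries only. In all 11 ligands with a start-site peak in 2 or more libraries the groups overlapped.

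Across all 542 member sites, 2 were called. Values were ranked within each library, since fold and −log10 p are relative to the background of that library, and ranks were turned into normal scores. A score is the position of a rank on a standard normal scale. By the rank of fold, 1 member site was lower in GR-KO (background 0.127% of all sites) and 0 were higher (background 0.0615%), with 24 lower and 34 higher at an unadjusted p under 0.05 in limma (4.43% and 6.27%, against 6.02% and 6.11% of all sites). Ranking by −log10 p gave 1 lower member site (background 0.839%) and 1 higher (background 0.764%). At 70 of the 542 sites every GR-con library had a larger −log10 p than every GR-KO library (background 12.3%), and at 29 the reverse held (background 5.75%). These shares, 12.9% and 5.35%, were near the background. The median score difference by −log10 p, GR-KO minus GR-con, was 0.0164 at member sites and 0.00566 at all sites.

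**Figure D2:**
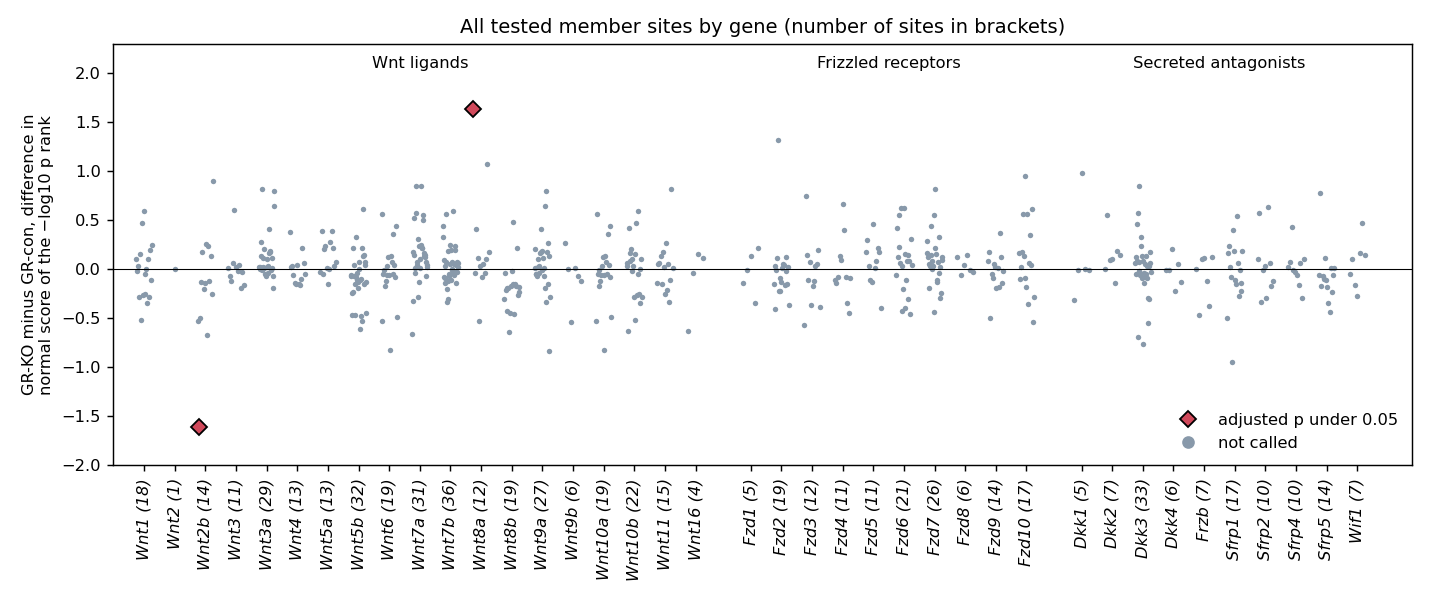
Difference between GR-KO and GR-con in the normal score of the −log10 p rank (vertical axis) for the tested sites of each gene (horizontal axis, number of sites in brackets, a site in overlapping windows shown under each gene). Diamonds mark the 2 sites with an adjusted p under 0.05, lower near *Wnt2b* (−1.61) and higher in the *Wnt8a* window (1.64).

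The called lower site lies 8.84 kb past the 3′ end of *Wnt2b*, in intergenic sequence (chr3:104936234-104936634). Wnt2b is a ligand of the β-catenin pathway. The fold there was 11.04, 9.15 and 6.46 in GR-con 1 to 3. GR-KO 1 and 3 had no peak, and GR-KO 2 had one of fold 2.65 whose summit lay 200 bp from the site centre, at the limit of the rule. The −log10 p was 66.9, 44.8 and 22.8 in GR-con and 3.81 in GR-KO 2, so the groups were well apart, although GR-con itself spanned a wide range. No peak of any GR-KO library covered the site centre. The score difference was −1.67 by fold (standard error 0.24, adjusted p = 0.0479) and −1.61 by −log10 p (standard error 0.261, adjusted p = 0.0022, limma). The fold call was lost when any one of the 6 libraries was left out, each of GR-con 1 to 3 and GR-KO 1 to 3 (adjusted p = 0.0743 to 0.2). A fit with a block for replicate number lost it as well. The −log10 p call was lost without GR-con 1 (0.11) or GR-con 2 (0.0968). The site reached the 2 libraries needed for testing through GR-con, the condition in which it was high, and is not tested when a peak is required in all 6 libraries.

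At 2 other *Wnt2b* sites the values were larger in GR-KO, and neither site was called in the fit over all sites. At the upstream site printed above, 32.1 kb before the gene (chr3:104993817-104994217), the fold was 6.02, 6.5 and 6.44 in GR-con and 8.74, 8.08 and 7.9 in GR-KO. The −log10 p was 56.2, 60.8 and 71.5 against 102, 93.7 and 88.0, without overlap, and the site did not pass the threshold (score difference 0.256, standard error 0.0663, adjusted p = 0.0597, and 0.0359 with a peak required in all 6 libraries). A weaker site 43.8 kb upstream, in a coding exon of *Cttnbp2nl*, had a peak in the 3 GR-KO libraries alone, with a fold of 3.3, 3.31 and 2.3 (adjusted p = 0.171 by both rankings). It entered the test through GR-KO alone, so its p gives no support beyond these values. The *Wnt2b* start site had GR-con folds of 3.92, 5.41 and 3.74 and GR-KO folds of 2.35, 5.23 and 4.22, which overlap.

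The called higher site, in the *Wnt8a* window (chr18:34506086-34506486), lies in an intron of *Fam13b* close to its start, 36.0 kb upstream of *Wnt8a*. Wnt8a is a ligand best known from early embryos, and its own start site had no peak. A summit was listed there in the 3 GR-KO libraries only, with a −log10 p of 19.7, 27.9 and 19.6 and a fold of 3.51, 3.98 and 3.39 (score difference 1.64 by −log10 p rank, standard error 0.285, adjusted p = 0.0041). The site entered the test through GR-KO alone and is not tested when a peak is required in all 6 libraries. However, an interval covering the same position was listed in all 6 libraries. Its strongest summit had GR-con folds of 20.5, 19.4 and 19.1 and GR-KO folds of 19.1, 19.8 and 18.5, with a −log10 p of 386, 393 and 387 against 358, 413 and 370, which overlap. The call is therefore one of an added summit within an interval open in both conditions, and with covering peaks in place of summits the score difference was −0.0308 (adjusted p = 0.871). A second site of the *Wnt8a* window had no covering interval in GR-con. At 31.8 kb past the gene (chr18:34579905-34580305), near the start of *Nme5*, a peak was present in the 3 GR-KO libraries alone, with a fold of 2.85, 4.45 and 2.93 (adjusted p = 0.0941 by −log10 p rank). It was called higher only without the variance trend in limma (adjusted p = 0.046 by −log10 p rank). This site too entered the test through GR-KO alone, so its p gives no support beyond these values.

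**Figure D3:**
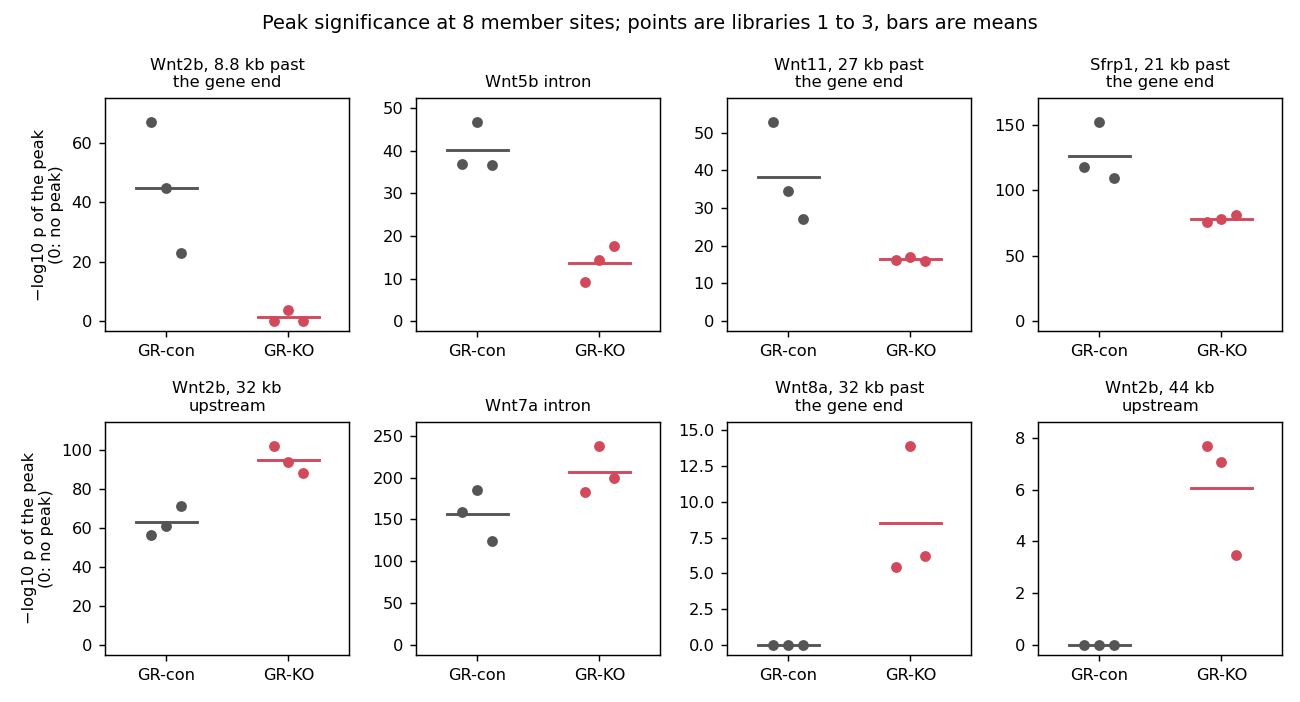
The −log10 p of the peak (vertical axes, 0 where no peak was listed) at 8 member sites, with points for libraries 1 to 3 of GR-con (grey) and GR-KO (red) and bars for means. The upper row shows sites with larger means in GR-con and the lower row sites with larger means in GR-KO, and among these 8 only the *Wnt2b* site past the gene end, 44.8 ± 22.1 in GR-con and 1.27 ± 2.2 in GR-KO (mean ± SD, n = 3), was called.

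The remaining ligand sites with the smallest p did not pass the threshold in the fit over all sites. In the *Wnt5b* intron (chr6:119514051-119514451, printed above) the fold was 9.83, 11.5 and 9.15 in GR-con and 4.15, 5.49 and 6.17 in GR-KO, without overlap (adjusted p = 0.0977 by fold and 0.0641 by −log10 p rank, 0.0206 by the latter among sites with a peak in all 6 libraries). Near the start of *Adipor2*, 13.4 kb past *Wnt5b* (chr6:119418912-119419312), the fold overlapped, at 13.5, 14.4 and 13.6 against 12.9, 14.4 and 16.0, while the −log10 p was 283, 302 and 252 against 172, 203 and 221 (adjusted p = 0.0832, and 0.0442 with a peak required in all 6 libraries). At 26.9 kb past *Wnt11* (chr7:98881903-98882303), a site with 2 GR half-sites, the fold was 12.5, 9.41 and 7.61 in GR-con and 5.78, 6.06 and 5.8 in GR-KO (adjusted p = 0.184). Wnt11 is a ligand of signalling without β-catenin. At 41.4 kb past the same gene, in an intron of *Uvrag*, only GR-KO libraries had a peak, with a fold of 3.07, 3.03 and 3.18 (adjusted p = 0.122). Without the variance trend in limma this site was called higher (adjusted p = 0.0133 by fold and 0.0144 by −log10 p rank). It entered the test through GR-KO alone, so its p gives no support beyond these values. In an intron of *Wnt10a*, also in the *Wnt6* window, the fold was 3.83, 3.81 and 4.6 in GR-con, 2.43 in GR-KO 1 and 2.22 in GR-KO 3, with no peak in GR-KO 2. At 32.5 kb past *Wnt9a* it was 4.91, 3.58 and 4.22 in GR-con and 2.71 in GR-KO 1 alone. In an intron of *Wnt7a* (chr6:91384417-91384817) the −log10 p was 159, 186 and 125 in GR-con and 182, 238 and 200 in GR-KO, which overlap (adjusted p = 0.143).

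For the antagonists, 0 of 116 sites were called by either ranking in limma, with 14 lower and 7 higher by −log10 p at an unadjusted p under 0.05 (12.1% and 6.03%, against 6.37% and 6.98% of all sites). Every GR-con library exceeded every GR-KO library by −log10 p at 24 of the sites (20.7%, against 12.3% of all sites), and the reverse held at 7 (6.03%, against 5.75%). By fold, 10 were lower and 7 higher at an unadjusted p under 0.05 in limma (8.62% and 6.03%, against 6.02% and 6.11% of all sites). Every GR-con library exceeded every GR-KO library by fold at 15 sites (12.9%, against 9.5%), with the reverse at 7 (6.03%, against 6.47%). Whether any of these shares differ from the rest of the genome was not tested. The site of smallest p lies 20.8 kb past *Sfrp1* (chr8:23470200-23470600), which encodes a secreted frizzled-related protein made by neural cells. Its −log10 p was 118, 153 and 110 in GR-con and 75.6, 78.3 and 81.1 in GR-KO, without overlap, and its fold was 16.0, 17.1 and 14.0 against 13.26 and 13.58 in GR-KO 1 and 3 and 13 in GR-KO 2 (adjusted p = 0.11 by −log10 p rank). The site held a GR half-site.

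For the receptors, 0 of 142 sites were called by either ranking in limma, with 4 lower and 9 higher by −log10 p at an unadjusted p under 0.05 (2.82% and 6.34%, against 6.37% and 6.98% of all sites). The sites with the smallest p in both directions lie within one interval 24.5 to 25.5 kb upstream of *Fzd2*, at the start of *Gm11627*. This interval was 1490 to 1607 bp wide and was present in all 6 libraries. At its first summit (chr11:102578690-102579090) the fold was 8.67, 9.07 and 8.1 in GR-con and 11.6, 11.5 and 9.81 in GR-KO (adjusted p = 0.212). At its last summit (chr11:102579724-102580124) the −log10 p was 186, 185 and 200 in GR-con and 143, 126 and 118 in GR-KO, without overlap (adjusted p = 0.066). A middle summit (chr11:102579205-102579605) was listed in GR-con 1, with a fold of 3.96, and in the 3 GR-KO libraries, with 4.61, 4.26 and 4.55 (adjusted p = 0.0647 by −log10 p rank). The strongest summit of the interval had a −log10 p of 186, 212 and 200 against 206, 218 and 171, which overlap. None of the 3 summits was called in the fit over all sites. The last summit was called lower when a peak was required in all 6 libraries (adjusted p = 0.0422), as was another site of the *Fzd2* window (chr11:102556110-102556510, adjusted p = 0.0451), and the middle summit was called higher without GR-con 1 (adjusted p = 0.0166).

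Only 1 receptor site had peaks in all of GR-con but none of GR-KO, 48.7 kb past *Fzd3* in an intron of *Extl3* (chr14:65143560-65143960), with a fold of 2.26, 2.31 and 2.2. It was the only such site among all 542 (background 1.15%). This *Fzd3* site was called lower only without the variance trend in limma (adjusted p = 0.0343 by −log10 p rank), and it entered the test through GR-con alone. The opposite pattern was found at 4 member sites, all in ligand windows (background 0.622%), namely both *Wnt8a* sites, the *Wnt2b* exon site and the *Wnt11* site described above. Of the 542 sites 351 (64.8%) had a peak in all 6 libraries, against 62.0% of all sites, and 53 (9.78%) had one in 2 libraries, against 12.1%. Peaks in member windows that lay at no tested site made up 25.1 to 28.9% of member peaks in each library and enter none of the site comparisons.

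**Figure D4:**
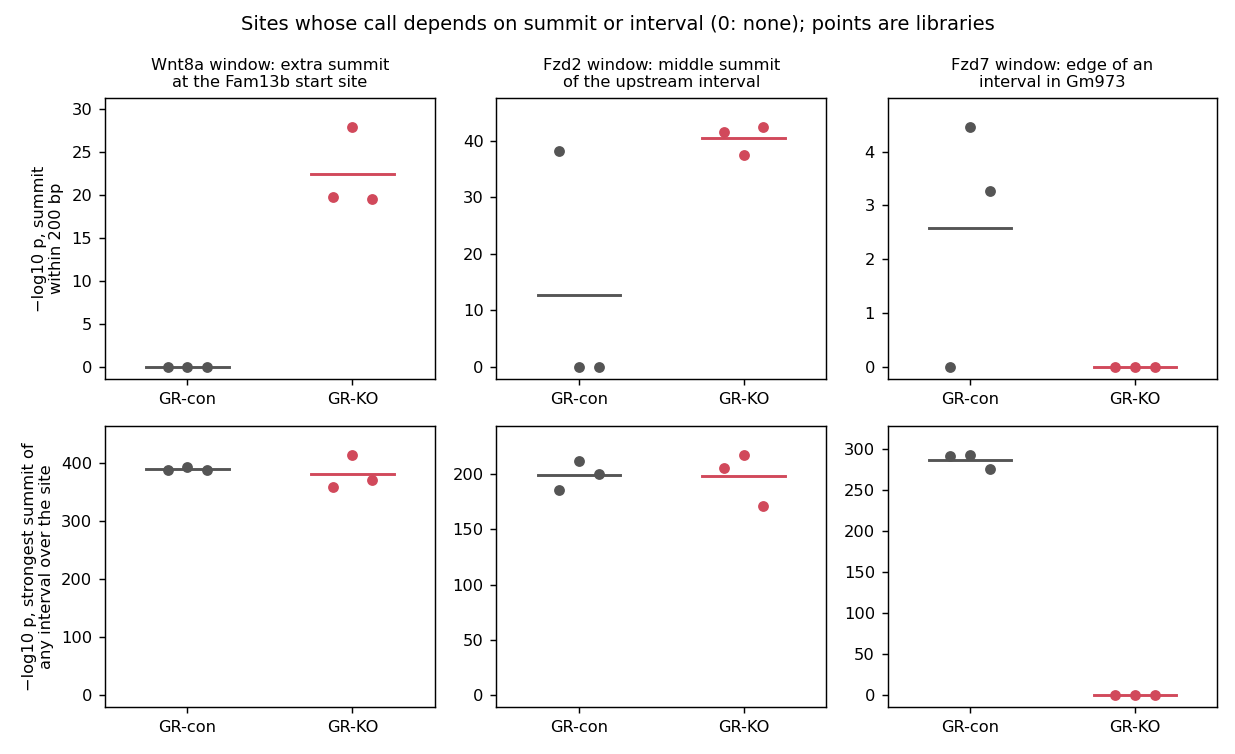
The −log10 p (vertical axes, 0 where none) at 3 sites, counted from a summit within 200 bp of the site centre (upper row) and from the strongest summit of any listed interval over the centre (lower row), with points for GR-con (grey) and GR-KO (red) libraries and bars for means. In the *Wnt8a* and *Fzd2* windows the libraries separate or nearly so by summit and overlap by interval, and in the *Fzd7* window the reverse is seen.

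A site in the *Fzd7* window, chosen after its values were seen, showed the opposite dependence. It lies 630 bp inside *Gm973* and was called lower only with covering peaks (adjusted p = 6.57e-05 by −log10 p rank). A listed interval covered its centre in all GR-con lists but none of the GR-KO lists. Under that rule the site entered the test through GR-con, where it was high, so its p gives no support beyond the values. This interval was 1003, 913 and 929 bp wide in GR-con and 737, 754 and 754 bp in GR-KO libraries. Its main summit, at the *Gm973* start site, had a fold of 21.01, 21.6 and 18.25 against 21.5, 22.3 and 20.3, which overlap. In each list 44.1 to 51.0% of peaks shared their interval with another summit.

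The number of peaks per gene window passed the test for no member. The median member had 17.2 peaks in its window, or 14.9 per 100 kb, against 15.2 and 11.1 for all protein-coding genes. With the number scaled to 100000 peaks per list, limma called 0 of 39 members and 0 of all 19224 genes tested (background 0%), and 3 members (7.69%) and 1589 genes (8.27%) had an unadjusted p under 0.05. These members were *Wnt8a*, with 15, 13 and 13 peaks in GR-con and 18, 19 and 17 in GR-KO (log2 difference 0.41, standard error 0.0993, adjusted p = 0.409), *Wnt5a*, with 14, 14 and 16 against 16, 17 and 17 (0.22, adjusted p = 0.548), and *Wnt8b*, with 24, 22 and 27 against 16, 20 and 21 (−0.28, adjusted p = 0.527). *Wnt8b*, a ligand of the developing forebrain whose start site had no peak, also had a lower score by −log10 p in GR-KO at 17 of its 19 sites, the lowest median of any member (−0.19), and none of the 19 was called. Absent peaks rank lowest, so these scores partly restate its lower peak number. Peaks were counted by summit. The *Wnt8a* number therefore includes the GR-KO summits of both *Wnt8a* sites described above, also that within the *Fam13b* interval open in both conditions. At the other end, *Wnt7a* had a higher score at 25 of 31 sites (median 0.13). Sites in one window share their chromosomal neighbourhood and are not independent. *Wnt2* had the sparsest window, with 1 peak in every library.

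**Figure D5:**
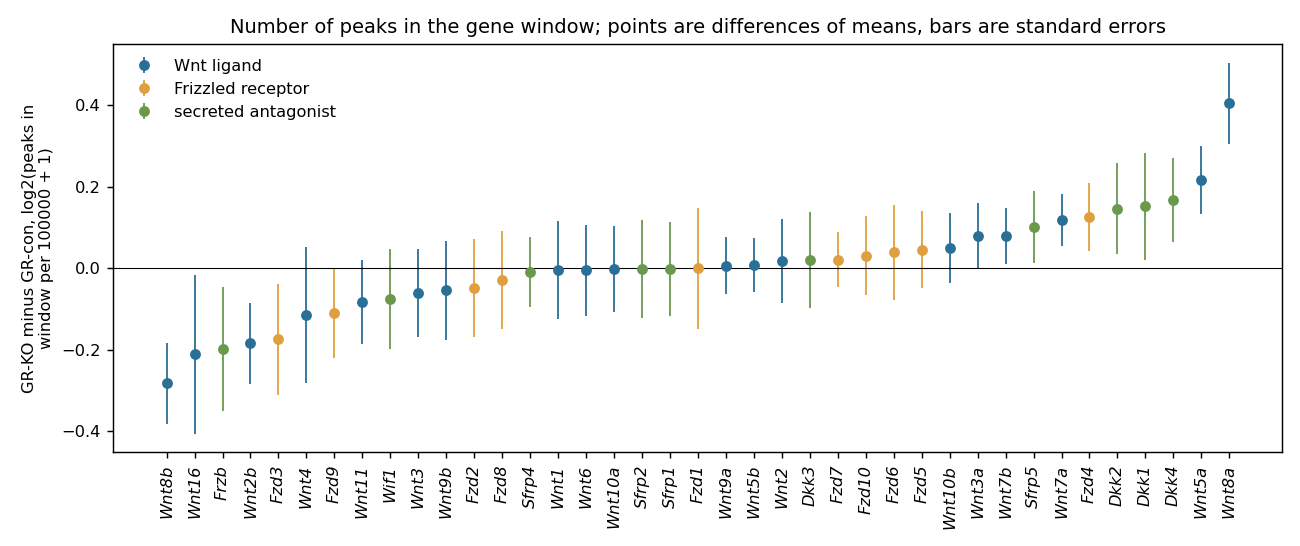
Difference between GR-KO and GR-con in log2(peaks in the gene window per 100000 peaks of the list + 1) (vertical axis) for the 39 members (horizontal axis, ordered by value), with bars for the standard error and colours for ligands, receptors and antagonists. *Wnt8b* (−0.28) lies at the lower end and *Wnt8a* (0.41) at the upper end, and none passed the adjusted threshold.

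Other genes of the pathway, a list of 53 from co-receptors to nuclear factors, had 1447 tested sites, none in a member window. By −log10 p rank 7 were lower (background 0.839%) and 8 higher (background 0.764%) in GR-KO, at 11 genes, and the adjusted p of each site named here is from that ranking. By fold rank limma called 0, with 64 lower and 72 higher at an unadjusted p under 0.05 (4.42% and 4.98%, against 6.02% and 6.11% of all sites). The calls rested on all libraries: without GR-con 1 or without GR-con 2 both counts were 0, without GR-con 3 they were 3 lower and 1 higher, and without 1 GR-KO library 3 to 6 lower and 0 to 2 higher. They were 3 lower and 1 higher with covering peaks, 3 and 3 with summits within 100 bp, and 4 and 2 with a block for replicate number. With a peak required in all 6 libraries they were 10 and 12. Of the 7 lower sites, 4 were among the 240 of the co-receptors, and 2 of these are adjacent *Reck* sites under one interval in GR-con. In an intron of *Reck*, which with Adgra2 relays Wnt7 signals, the −log10 p was 93.0, 136 and 61.8 in GR-con and 14.9, 27.02 and 17.6 in GR-KO (adjusted p = 0.000914). In *Ror1*, a receptor tyrosine kinase for Wnt ligands, an intron site with the full GR element was lower, at 129, 140 and 82.0 against 39.8, 34.2 and 37.3 (adjusted p = 0.00128). The strongest summit of any interval over that site had 129, 140 and 82.0 against 61.3, 63.4 and 52.7. Another *Ror1* intron site was higher, at 16.6, 18.6 and 13.7 against 31.1, 34.8 and 56.7 (adjusted p = 0.0434). The GR element was at 5 of the 1447 pathway sites (0.346%, against 0.41% of all sites). A site in the *Csnk1a1* window, within *Arhgef37* and also with the GR element, was lower, with a −log10 p of 69.7, 77.6 and 49.9 in GR-con and of 7.21 in GR-KO 2, the other GR-KO libraries having no peak (adjusted p = 0.000711). Csnk1a1 is the kinase that primes β-catenin for degradation.

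Sites near *Gpc4*, which encodes a glypican of the cell surface, and in an intron of *Tle1*, a co-repressor that TCF/LEF factors recruit, had peaks in GR-con libraries alone, with a −log10 p of 19.7, 8.87 and 14.5 and of 40.4, 10.2 and 10.3 (adjusted p = 0.0413 and 0.0378). The higher sites included 3 past *Tcf7l2*, a TCF/LEF factor. One of these had a −log10 p of 257, 225 and 196 in GR-con and 282, 381 and 326 in GR-KO (adjusted p = 0.0323). Another had 148, 158 and 172 against 237, 215 and 214 (adjusted p = 0.0377). The remaining one had peaks in GR-KO libraries alone, at a −log10 p of 18.2, 14.3 and 17.3 (adjusted p = 0.0104). The *Gpc4* site, the *Tle1* site, this *Tcf7l2* site and the *Csnk1a1* site entered the test through the condition in which they were high, so their p gives no support beyond the values themselves. In an intron of *Apcdd1*, an inhibitor at the membrane, the −log10 p was 53.9, 42.2 and 56.1 in GR-con and 112, 107 and 79.4 in GR-KO (adjusted p = 0.00784). Near *Gpc6* it was 6.83 and 6.79 in GR-con 1 and 2, with no peak in GR-con 3, and 32.5, 34.7 and 16.0 in GR-KO (adjusted p = 0.0409). Start-site peaks were present in every library at 48 of the 53 genes.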

How the data were processed

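ATAC-seq was read from 6 peak lists of sorted V1 astrocyte nuclei, 3 GR-con and 3 GR-KO, grouped by the labels. The authors called peaks separately in each library with the ENCODE ATAC-seq pipeline 2.2.0 on mm10, at a p threshold of 0.01 and with multimapping set to 0. The deposited lists give, per summit, a fold over local background (a ratio), a −log10 p and a −log10 q. They hold no read counts, so the depth behind each value is unknown and no count model was run. A weak site can be missing from a list because of depth.

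Peaks were joined into sites by summit (200 bp), absent peaks ranked below all present ones, and ranks within each library converted to normal scores, which were compared between conditions with limma 3.58.1 (R 4.3.3), with a variance trend and Benjamini-Hochberg adjustment over all 160874 sites (threshold 0.05), without a replicate block. Peaks per gene window were compared as log2(peaks per 100000 + 1). An exact permutation test of 3 against 3 libraries cannot give p under 0.1 and was not used. P-values measure the spread between pooled libraries. The procedure was tested on simulated data. The simulated site scores held no ties for absent peaks and passed no filter on libraries with a peak. That test therefore does not cover sites where a condition lacks peaks.

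The members and lists were chosen with earlier results of these data known. Values are given for called sites, for the 5 lower and 5 higher sites with the smallest p in either ranking, for sites with peaks in 1 condition alone, for the start sites of the 5 most highly ranked members of each class, and for at most 8 pathway genes with a called site. Other named items were chosen after their values were seen. Alternatives changed the summit distance, the covering rule, the number of libraries required, a q limit of 0.01, list length, the variance trend, the window, the pseudocount, the libraries and a replicate block.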

Additional observations from a re-analysis of the deposited data

How the results depend on the processing

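Depth is unknown for these lists, and calls near a peak caller's threshold are the least certain. Counts of called member sites were small, so 1 site moves them. Lower member sites by fold rank (1) became 2 with covering peaks, 2 with 100 kb windows, and 0 with a peak required in all 6 libraries, with the replicate block and in every fit without 1 library (0 to 0). Higher member sites by fold rank (0) became 2 without the variance trend. Lower member sites by −log10 p rank (1) became 2 with covering peaks, 4 with a peak in all 6 libraries (none of them the *Wnt2b* site, which is then not tested, and 2 each in the *Wnt5b* and *Fzd2* windows), 2 without the trend, 3 with 100 kb windows and 0 to 1 without 1 library. Higher member sites by −log10 p rank (1) became 0 with covering peaks, 3 without the trend, 0 with 25 kb and 4 with 100 kb windows, and 1 to 2 without 1 library. Next come sites with peaks in 1 condition alone, with the share over all sites in brackets. Those in GR-con alone, 1 (1.15%), became 2 with the q limit (1.27%), 3 with covering peaks (1.31%) and 2 at 100 bp (1.17%). They became 0 and 4 with 25 and 100 kb windows (1.15%), and 4 to 9 without 1 library (1.99 to 2.45%). Those in GR-KO alone, 4 (0.622%), became 3 with the q limit (0.531%) and 2 with covering peaks (0.513%). They became 0 and 6 with 25 and 100 kb windows (0.622%), and 7 to 10 without 1 library (1.13 to 1.51%). The share over all sites thus rose too when 1 library was left out. For the pathway list, lower sites by fold rank (0) became 3 with covering peaks, 1 with peaks in at least 3 libraries and 8 without the trend, and higher sites (0) became 1 with covering peaks and 7 without the trend. By −log10 p rank, lower pathway sites (7) became 3 with covering peaks, 3 at 100 bp, 10 with peaks in all 6 libraries, 4 with the replicate block, 12 with 100 kb windows and 0 to 6 without 1 library, and higher ones (8) became 1, 3, 12, 2, 14 and 0 to 2. The causes were not tested. Peak number gave 0 called members throughout. Direction turned with covering peaks for the last *Fzd2* summit (0.025) and the *Wnt8a* site in *Fam13b* (−0.06 by fold, −0.0308 by −log10 p), and for the *Fzd2* start site by −log10 p without GR-KO replicate 2 (−0.0166, against up to 0.0323 without another single library). Of the other values, for single sites and for the peak numbers of *Wnt5a*, *Wnt8a* and *Wnt8b*, 468 kept direction and side of the threshold, 10 gained a call and 9 lost it. Libraries with the same replicate number deviated together very weakly at most (r = −0.00719 to 0.0306, against −0.0348 to 0.00961 for unlike numbers). The numbers were not taken as pairs. With the replicate block the adjusted p at the *Wnt2b* downstream site was 0.195 by fold and 0.0185 by −log10 p.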
